A study of Mus musculus with 18 samples.

Results

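The response of mouse basophils to IgE-directed antigen at 4 h was compared between wild-type cells and cells labelled as lacking tristetraprolin (TTP), the product of Zfp36. For each gene the WT response was the log2 change from control OVA to TNP-OVA at 4 h in WT, the TTP-KO response was the same change in TTP-KO, and the quantity examined was the TTP-KO response minus the WT response. It is called the response difference here. It was computed for the 14076 of 56413 listed genes that passed an expression filter, and 97 of them (0.689%) passed the test at an adjusted p of 0.05.

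TTP is an RNA-binding protein that attaches to AU-rich elements in the 3′ UTRs of short-lived mRNAs, many of them encoding cytokines, and recruits the machinery that removes the poly(A) tail so that the mRNA is degraded. Its own gene is induced by the stimuli that induce its targets, which makes it a brake on inflammatory responses. Basophils are rare granulocytes that carry IgE on the receptor FcεRI. When antigen crosslinks that IgE they release histamine and lipid mediators and make cytokines, IL-4 and IL-13 among them.

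Bulk RNA-seq was available for 18 libraries, 3 in each of 6 groups. Bone marrow cells of WT or TTP-KO mice were grown for 7 days with IL-3 at 0.3 ng/mL, loaded with TNP-specific IgE at 1 µg/mL on day 6, and enriched for CD49b+ cells with magnetic beads. Portions of 50000 cells then received control OVA for 2 h, TNP-OVA for 2 h or TNP-OVA for 4 h, each at 10 ng/mL. The response difference rests on 12 libraries, those of control OVA at 2 h and of TNP-OVA at 4 h in both genotypes.

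Several features of the design limit what a value means. The labels give no allele, age or strain for either genotype and do not say whether libraries of a group came from separate mice or cultures, so a p-value covers the spread among these libraries alone, and that spread may be technical. The control was collected at 2 h, so a 4 h response also contains the later collection time, whose effect in either genotype was not tested. CD49b enrichment leaves other cells in a culture, and in bulk RNA fewer cells of a type and less RNA per cell cannot be told apart.

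Library totals ranged from 5516600 to 12733000 counts. Levels are given in CPM (counts scaled to the size of the library). The levels of the 12 basophil marker genes, among them Mcpt8, Prss34 and Fcer1a, were summed in each library. In control the sum was 25600 to 26900 CPM in WT and 26300 to 27800 CPM in TTP-KO. At 4 h it was 26100 to 27600 CPM in WT and 25000 to 25500 CPM in TTP-KO, without overlap. Zfp36 itself was present in every library of both genotypes. In control it stood at 224, 239 and 247 CPM in WT and at 219, 228 and 225 CPM in TTP-KO, and at 4 h at 268, 307 and 309 CPM in WT and 349, 322 and 301 CPM in TTP-KO, so that the genotypes overlapped in both conditions. At 2 h after antigen it was higher in TTP-KO, at 568, 553 and 572 CPM against 446, 460 and 439 CPM in WT. Its reads therefore give no check of the genotype labels, since the altered part of the gene is not named in them, and every direction below is between libraries labelled WT and libraries labelled TTP-KO. The response difference of Zfp36 was 0.22 ± 0.08 (log2 ± SE, adjusted p = 0.247) at 4 h and 0.41 ± 0.08 (adjusted p = 0.025) at 2 h.

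The antigen response was broad in both genotypes. At 4 h 5350 genes (38.0% of those tested) changed in WT and 4932 (35.0%) in TTP-KO. The WT and TTP-KO responses, which share no library, had a Pearson correlation of 0.543 and a Spearman correlation of 0.685 over the 14076 genes, which are not independent of each other. Against that background few genes passed the test of the response difference. Its median over all genes, with the sign kept, was 0.01, which does not measure its size. A size of 1.5-fold or more was reached by 1869 of the 14076 genes, called or not. In the 97 called genes the size ran from 0.23 to 1.3 on the log2 scale. Of these 97, 29 were at 1.5-fold or more and 4 at 2-fold or more (Dock4, Asb2, Tgm1 and Akr1c13).

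The response was higher in TTP-KO than in WT in 39 genes (0.277% of those tested) and lower in 58 (0.412%). The number of calls depended on single libraries. It was 59 without WT control replicate 2, 56 without TTP-KO control replicate 2, 51 without WT 4 h replicate 2, 52 without WT 4 h replicate 3 and 46 without TTP-KO 4 h replicate 2. All 97 genes kept their direction in each of the 20 other fits tried, and 38 were called in each of the 12 fits that left out 1 library. Genes described below as called at 4 h were called in all 12 of those fits unless a smaller number is given for them.

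**Figure D1:**
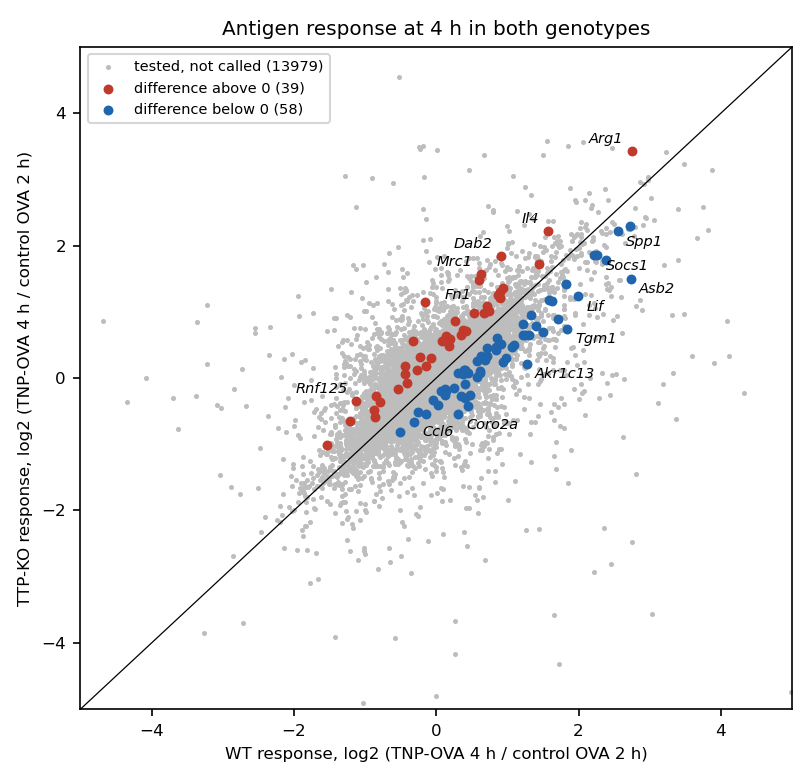
The WT response (x axis, log2) and the TTP-KO response (y axis, log2) at 4 h for each gene tested, with the 39 genes of higher TTP-KO response in red, the 58 of lower response in blue and 13979 uncalled genes in grey; 51 genes lie beyond the axes. Most blue points lie to the right of 0 and below the diagonal: 50 of the 58 had risen in WT, against 19.6% of all genes tested.

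Over all genes tested 19.6% rose and 18.4% fell in WT at 4 h, and 18.3% rose and 16.7% fell in TTP-KO. The 58 genes with a lower response were mostly genes that antigen raised in WT. Of them 50 rose in WT, and of these 34 also rose in TTP-KO, 10 did not pass the test there and 6 fell there. Another 3 fell in both genotypes and 5 did not pass the test in WT and fell in TTP-KO. The median change of the 58 was 0.71 in WT and 0.28 in TTP-KO. The 39 genes with a higher response were mixed. Of them 20 rose in both genotypes, 15 fell in WT, and 4 did not pass the test in WT and rose in TTP-KO. Of the 15 that fell in WT, 8 fell in TTP-KO as well, 4 did not pass the test there and 3 rose there. The WT and TTP-KO libraries of these counts are those that also define the response difference, so the counts describe the 97 genes and are no separate evidence.

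Mrc1, Fn1 and Dab2 had the smallest p among the higher responses. Mrc1 encodes the mannose receptor CD206, a scavenger receptor of macrophages. In control it stood at 44.1, 44.8 and 45.1 CPM in WT and at 45.3, 40.7 and 42.2 CPM in TTP-KO. At 4 h it stood at 66.3, 70.2 and 70.9 CPM in WT and at 119, 123 and 138 CPM in TTP-KO. The genotypes overlapped in control and were well apart at 4 h. Mrc1 rose 1.55-fold in WT and 2.97-fold in TTP-KO, a response difference of 0.94 ± 0.10 (adjusted p = 1.76e-05). Dab2, an adaptor that brings receptors into clathrin-coated pits, was slightly lower in TTP-KO before antigen, with 29.0, 27.7 and 28.8 CPM in WT and 24.2, 21.9 and 25.2 CPM in TTP-KO in control. At 4 h it reached 55.9, 57.2 and 47.5 CPM in WT and 85.5, 83.3 and 87.1 CPM in TTP-KO. TTP-KO was thus below WT in every control library and above it in every 4 h library, although the control difference did not pass the test (adjusted p = 0.16), and the response difference was 0.93 ± 0.12 (adjusted p = 3.85e-05).

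Fn1, which encodes the matrix protein fibronectin, crossed over. Its control libraries held 50.4, 45.8 and 46.2 CPM in WT and only 31.8, 31.6 and 34.8 CPM in TTP-KO. At 4 h WT held 73.1, 67.6 and 76.6 CPM and TTP-KO 93.9, 95.4 and 85.8 CPM. TTP-KO was thus below WT in every control library and above WT in every 4 h library, with genotype differences of -0.53 (adjusted p = 2.20e-04) and 0.34 (adjusted p = 0.0031). The response difference of Fn1 was 0.88 ± 0.11 (adjusted p = 3.85e-05). Sdc4, Cd93 and Lpl also rose more in TTP-KO. Sdc4, which encodes a cell-surface heparan sulphate proteoglycan, had a difference of 0.42 ± 0.07 (adjusted p = 0.0013). That of Cd93, a lectin-like surface receptor, was 0.40 ± 0.08 (adjusted p = 0.0082), and that of Lpl, lipoprotein lipase, 0.37 ± 0.07 (adjusted p = 0.0032). In Sdc4 and Lpl the genotypes differed in control, where TTP-KO was lower by 0.28 in each, and the 4 h difference did not pass the test.

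Genes of other cell types were looked at beside these because Mrc1 marks macrophages. Of 18 monocyte and macrophage markers tested, Mrc1 had a higher response and Spp1 (osteopontin, a secreted phosphoprotein) a lower response. Of the 18 markers 16 had a positive value, with a median of 0.09 against 0.01 over all genes tested. Their summed level was 13400 to 13500 CPM in WT control and 15600 to 15800 in TTP-KO control. At 4 h it was 18500 to 18900 in WT and 19200 to 20600 in TTP-KO. Spp1, which antigen raised, held 1330, 1380, 7800 and 6430 CPM of that sum as group means in the same order. The rise of the sum therefore follows Spp1 and does not measure the amount of these cells. At 4 h Spp1 was lower in TTP-KO, against the order of the sum. Csf1r, the receptor that defines this lineage, had group means of 257, 265, 267 and 291 CPM in the same order. Mertk, a receptor for dying cells, had 18.5, 23.6, 23.7 and 36.1 CPM, Cd14, a receptor for lipopolysaccharide, 235, 204, 228 and 228 CPM, and C1qa, a complement subunit, 179, 223, 167 and 200 CPM. The other member with a negative value beside Spp1 was C1qa, at -0.05, and the 15 positive values besides Mrc1, none of which passed the test, ran from 0.02 in Ms4a7 to 0.36 in Fcgr1. Cd163 was near 0, with at most 7 counts in any library. The part of these cells in the Mrc1, Dab2 and Fn1 results was not tested. The other marker lists gave 1 neutrophil gene (Cxcr2, of 18) and 1 basophil gene (Ms4a2, of 12), both lower, and none of 6 mast cell, 9 dendritic cell, 8 B and T cell, 5 NK and innate lymphoid, 8 eosinophil, 9 platelet and 6 erythroid markers. All 8 B and T cell markers had a positive value (median 0.23) without passing the test. Of the 12 basophil markers, Ms4a2 included, 10 had a negative value (median -0.07). Several of these lists differed between genotypes already in control, where 6 of 8 B and T cell markers were lower in TTP-KO and 7 of 18 neutrophil markers higher. Over all genes tested 1.24% were lower and 0.412% higher in TTP-KO control. The summed level in WT and TTP-KO control was 62.3 to 69.4 and 26.6 to 34.1 CPM for B and T cell markers, and 4030 to 4190 and 2620 to 2710 CPM for dendritic cell markers. It was 292 to 301 and 196 to 212 CPM for mast cell markers and 2490 to 2630 and 3110 to 3520 CPM for neutrophil markers. At 4 h the order of the genotypes was the same in these 4 lists. For B and T cell markers the sums were then 58.8 to 68.2 and 30.5 to 36.5 CPM, and for neutrophil markers 2060 to 2200 and 3000 to 3370 CPM. The part of these cells in the response difference was not tested.

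Il4 was the cytokine whose response was higher in TTP-KO. In control it stood at 255, 274 and 266 CPM in WT and 255, 282 and 255 CPM in TTP-KO. At 4 h it stood at 749, 777 and 829 CPM in WT and at 1300, 1190 and 1190 CPM in TTP-KO, so that the genotypes overlapped in control and not at 4 h. Il4 rose 2.97-fold in WT and 4.64-fold in TTP-KO, a response difference of 0.65 ± 0.10 (adjusted p = 0.0090). The call was lost with limma-voom. At 2 h after antigen the genotypes overlapped, at 2240, 2800 and 2550 CPM in WT and 2660, 2610 and 2390 CPM in TTP-KO. Every 4 h library of either genotype was therefore below every 2 h library.

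**Figure D2:**
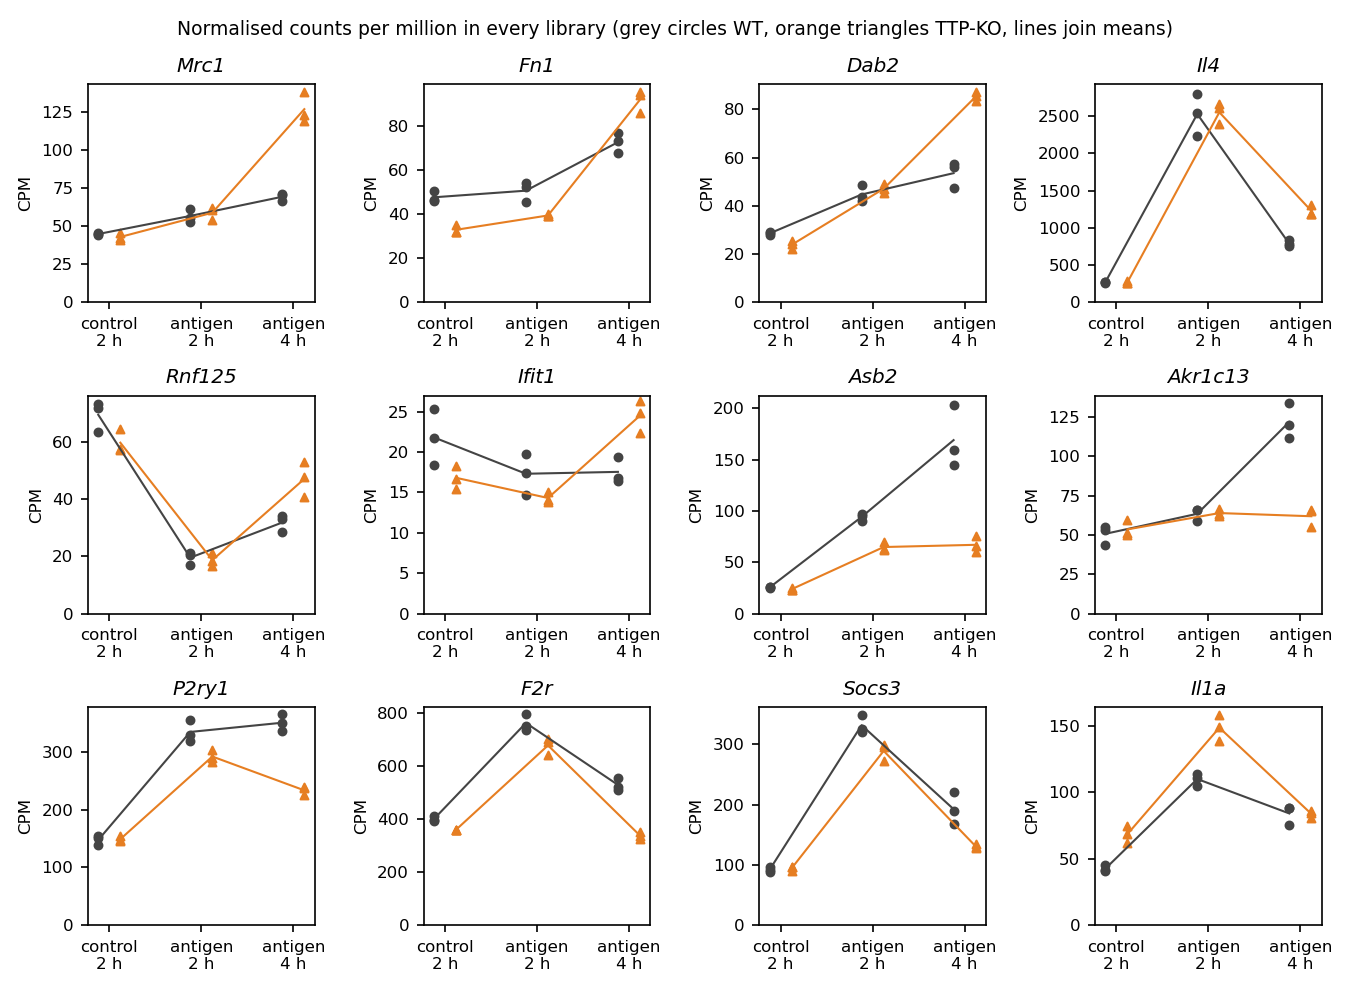
CPM (y axis, linear, from 0) in every library of 12 genes after control OVA at 2 h and TNP-OVA at 2 h and 4 h (x axis); grey circles are WT, orange triangles TTP-KO, and lines join the means of 3 libraries. In the Mrc1 panel TTP-KO reached 119 to 138 CPM at 4 h against 66.3 to 70.9 CPM in WT, and in the Asb2 panel 59.8 to 75.2 CPM against 145 to 203 CPM.

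At 4 h Rnf125, Heatr5a and Dgat1 were below control in both genotypes, and less far below it in TTP-KO. At 2 h after antigen the WT and TTP-KO means were 19.5 and 18.6 CPM in Rnf125 and 36.1 and 35.8 CPM in Heatr5a. In Dgat1 they were 100.5 and 98.4 CPM. Each of these 2 h means was below the 4 h mean of the same genotype. Rnf125, a ubiquitin ligase of antiviral RNA sensing, went from 63.4, 73.1 and 71.6 CPM to 33.9, 32.9 and 28.5 CPM in WT. In TTP-KO it went from 57.4, 64.3 and 57.2 CPM to 40.7, 47.5 and 52.8 CPM. The control libraries overlapped and the 4 h libraries did not, and the response difference was 0.77 ± 0.14 (adjusted p = 0.0039). Heatr5a, a protein of endosomal trafficking, was lower in TTP-KO in every control library and higher in every 4 h library, with a difference of 0.56 ± 0.10 (adjusted p = 0.0042). In Dgat1, which makes triglycerides, TTP-KO was lower in every control library (-0.28, adjusted p = 0.0087) and the 4 h libraries overlapped, with a response difference of 0.44 ± 0.09 (adjusted p = 0.0095).

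Ifit1, an interferon-induced protein that binds viral RNA, moved in opposite directions. In WT it went from 25.3, 18.4 and 21.7 CPM to 16.8, 19.4 and 16.4 CPM, and in TTP-KO from 18.3, 15.4 and 16.7 CPM to 24.8, 22.4 and 26.3 CPM. Every TTP-KO library was below every WT library in control, a difference of -0.40 that did not pass the test (adjusted p = 0.114), and above every one at 4 h. The fall in WT was small (-0.32, adjusted p = 0.038), and its control and 4 h libraries overlapped. The response difference was 0.88 ± 0.17 (adjusted p = 0.011), and the call was lost with DESeq2. Of 31 interferon response genes tested, Ifit1 and Rsad2 had a higher response, none a lower one, and the median was 0.17. Rsad2, the antiviral enzyme viperin, had a difference of 0.50 ± 0.12 (adjusted p = 0.048) and was called in 3 of the 12 fits that left out a library (largest adjusted p 0.171). It was also lost without a scaling factor, with the 12 libraries alone, with the replicate block and with limma-voom.

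Higher responses that rested on fewer fits included Arg1 and Dock4. Arg1, the arginine-degrading enzyme arginase, went from 10.4, 10.3 and 11.6 CPM to 68.4, 70.5 and 80.8 CPM in WT and from 10.5, 10.8 and 10.5 CPM to 123, 118 and 102 CPM in TTP-KO. Its 4 h libraries did not overlap, and its difference of 0.68 ± 0.15 (adjusted p = 0.022) held in 4 of 12 fits and was lost with limma-voom. Dock4, an activator of small GTPases, had the largest difference at 1.3 ± 0.30 (adjusted p = 0.041), at only 9.23 to 10.5 CPM in TTP-KO and 4.77 to 6.38 CPM in WT at 4 h, and held in 3 of 12 fits and not with DESeq2. Bcl2l11, which encodes the death inducer BIM, differed by 0.32 ± 0.07 (adjusted p = 0.022, 5 of 12 fits).

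Among the lower responses the largest was in Asb2, a subunit of a ubiquitin ligase that targets filamins. In control Asb2 stood at 24.5, 26.2 and 25.5 CPM in WT and 22.9, 25.0 and 23.2 CPM in TTP-KO. At 4 h it stood at 145, 159 and 203 CPM in WT and 75.2, 59.8 and 65.9 CPM in TTP-KO, with no overlap. It rose 6.64-fold in WT and 2.83-fold in TTP-KO, a response difference of -1.23 ± 0.16 (adjusted p = 3.27e-04). Akr1c13, an aldo-keto reductase, rose from 53.0, 55.3 and 43.9 CPM to 120, 112 and 134 CPM in WT. In TTP-KO it stood at 59.4, 51.3 and 50.0 CPM in control and at 65.7, 54.8 and 65.3 CPM at 4 h, a change that did not pass the test (adjusted p = 0.062). Its response difference was -1.05 ± 0.13 (adjusted p = 3.85e-05). Akr1c13 has close relatives in the genome, so how its reads were divided is uncertain. The relative Akr1c12 had a value of -1.02 ± 0.26 (adjusted p = 0.078) and Akr1c18, named here after its values were seen, one of -0.43 ± 0.09 (adjusted p = 0.015, 8 of 12 fits, lost with limma-voom).

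P2ry1, F2r, Adora2b, Lrp12 and Cd69, which encode surface receptors, had lower responses in TTP-KO. P2ry1, a receptor for ADP, went from 138, 151 and 154 CPM to 336, 366 and 351 CPM in WT and from 155, 147 and 145 CPM to 239, 225 and 237 CPM in TTP-KO. Its 4 h libraries were fully separated, and the response difference was -0.60 ± 0.07 (adjusted p = 3.85e-05). F2r, the thrombin receptor PAR1, went from 394, 398 and 411 CPM to 512, 521 and 557 CPM in WT, and from 361, 361 and 359 CPM to 336, 327 and 352 CPM in TTP-KO. TTP-KO was below WT in every library of both conditions. From control to 4 h F2r rose in WT and did not pass the test in TTP-KO (adjusted p = 0.12), with a difference of -0.49 ± 0.06 (adjusted p = 3.85e-05). At 2 h after antigen F2r had means of 764 CPM in WT and 680 CPM in TTP-KO, above control and 4 h in both genotypes. Adora2b, an adenosine receptor, rose in both genotypes and differed by -0.41 ± 0.07 (adjusted p = 0.0027). Lrp12, a receptor of the LDL receptor family, differed by -0.81 ± 0.14 (adjusted p = 0.0027). Cd69, an early activation antigen of leukocytes, differed by -0.62 ± 0.12 (adjusted p = 0.012), a call lost when only the 12 libraries were fitted.

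Ccnd2, Ccnd3, Id1, Coro2a and Actb also had lower responses. Ccnd2, cyclin D2, stood at 168, 180 and 203 CPM in WT and 119, 108 and 108 CPM in TTP-KO at 4 h, from 71.9, 79.1 and 73.4 CPM and 73.4, 69.3 and 71.9 CPM in control. The genotypes overlapped in control and not at 4 h, with a response difference of -0.65 ± 0.10 (adjusted p = 5.52e-04). The Ccnd2 means at 2 h after antigen were higher than at 4 h, at 305 CPM in WT and 241 CPM in TTP-KO. Ccnd3, cyclin D3, differed by -0.31 ± 0.06 (adjusted p = 0.0078). These 2 D-type cyclins, which drive entry into the cell cycle, were the members called among 32 cell cycle genes tested (median -0.07). Id1, which blocks the DNA binding of basic helix-loop-helix factors, differed by -0.70 ± 0.10 (adjusted p = 0.0017). Coro2a, a coronin of the actin-binding family, rose in WT (0.31) and fell in TTP-KO (-0.54). Its libraries went from 55.2, 55.3 and 51.6 CPM to 66.9, 62.7 and 71.0 CPM in WT and from 57.4, 60.5 and 65.0 CPM to 46.2, 40.4 and 38.7 CPM in TTP-KO, which was above WT in control and below it at 4 h. The response difference was -0.85 ± 0.11 (adjusted p = 3.85e-05). Actb, cytoplasmic beta-actin and a gene often used as a reference for normalization, was singled out after its values were seen. It went from 9460, 9670 and 9980 CPM to 15000, 16200 and 16500 CPM in WT and from 9520, 9750 and 9760 CPM to 13700, 13300 and 12900 CPM in TTP-KO. The difference was -0.26 ± 0.05 (adjusted p = 0.0032), was negative under each scaling tried, and was not called with limma-voom.

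Socs3, Socs1 and Nr4a3 had lower responses as well. Socs3, an inhibitor of cytokine receptor signalling, stood at 168, 189 and 220 CPM in WT and 134, 130 and 128 CPM in TTP-KO at 4 h. Its means at 2 h after antigen were higher, at 332 CPM in WT and 289 CPM in TTP-KO. In control it had stood at 87.4, 91.7 and 96.3 CPM in WT and 96.1, 90.3 and 96.4 CPM in TTP-KO. The control libraries overlapped and the 4 h libraries did not, with a response difference of -0.60 ± 0.10 (adjusted p = 0.0032). Socs1, a relative of the same role, differed by -0.41 ± 0.09 (adjusted p = 0.017, 8 of 12 fits, lost with limma-voom). They were the 2 members called among 18 feedback genes tested, of which 15 had a negative value (median -0.18). Of the 18, 17 rose in WT, against 19.6% of all genes tested, and the WT response is subtracted in the difference. The share of negative values among all genes that rose in WT is not given here. Nr4a3, an orphan nuclear receptor induced early after stimulation, differed by -0.46 ± 0.08 (adjusted p = 0.0035). Its means in WT and TTP-KO were 588 and 417 CPM at 2 h after antigen and 130 and 98.7 CPM at 4 h. With Maff it made up the 2 calls among 29 immediate early factors (median -0.05).

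Secreted proteins of the chemokine kind were lower where they were called. Ccl6, a CC chemokine abundant in these cells, fell in both genotypes and further in TTP-KO, from 6890, 6920 and 7190 CPM to 5460, 5460 and 6070 CPM in WT and from 6120, 6520 and 6630 CPM to 4210, 3860 and 4110 CPM in TTP-KO. TTP-KO was below WT in both conditions, with a response difference of -0.35 ± 0.06 (adjusted p = 0.0012). Ccl9, a related chemokine, rose in both genotypes and differed by -0.24 ± 0.05 (adjusted p = 0.0078). They were the 2 calls among 20 chemokines, with a median of -0.22. Spp1 rose from 1290, 1380 and 1330 CPM to 7540, 7940 and 7920 CPM in WT and from 1350, 1420 and 1360 CPM to 6560, 6560 and 6160 CPM in TTP-KO, a difference of -0.33 ± 0.05 (adjusted p = 0.0010). Alox5, the first enzyme of leukotriene synthesis, differed by -0.31 ± 0.06 (adjusted p = 0.014, 10 of 12 fits) and was the only call among 17 genes of mediator synthesis.

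**Figure D3:**
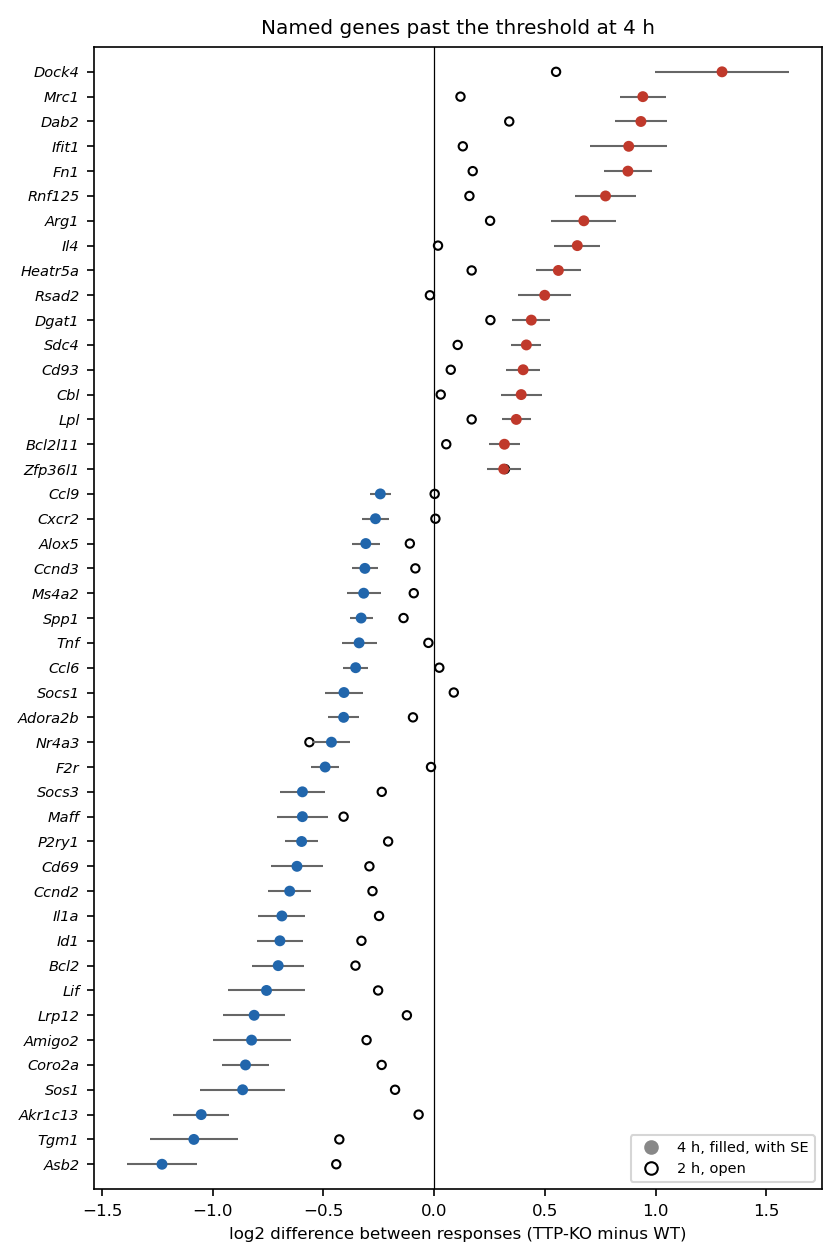
The response difference (x axis, log2, TTP-KO minus WT) of the named genes that passed the test at 4 h, one gene a row. Filled points with bars are the 4 h values with their SE, red above 0 and blue below, and open points are the same difference at 2 h. The 4 h values run from -1.23 in Asb2 to 1.3 in Dock4.

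The lower responses of Il1a, Maff and Bcl2 came with a genotype difference already present in control. Il1a, the alarmin cytokine IL-1α, stood at 40.5, 41.2 and 45.5 CPM in WT control and at 74.9, 61.5 and 68.9 CPM in TTP-KO control. At 4 h the genotypes overlapped, at 75.7, 88.1 and 88.4 CPM in WT and 86.1, 81.0 and 84.1 CPM in TTP-KO. The control difference was 0.68 (adjusted p = 3.05e-06), the 4 h difference -0.0046, and the response difference -0.69 ± 0.11 (adjusted p = 7.58e-04). Maff, a small Maf transcription factor, had the same form. It was at 28.9, 22.9 and 27.6 CPM in WT and 40.3, 40.1 and 34.7 CPM in TTP-KO in control, and overlapped at 57.9, 58.6 and 54.7 CPM and 56.9, 55.0 and 50.3 CPM at 4 h. Its response difference was -0.60 ± 0.12 (adjusted p = 0.0090). Bcl2, an inhibitor of apoptosis, was higher in TTP-KO in control (0.38, adjusted p = 0.015) and lower at 4 h (-0.33, adjusted p = 0.013). It rose in WT from 35.4, 35.7 and 36.8 CPM to 47.3, 46.0 and 49.4 CPM and fell in TTP-KO from 51.8, 46.7 and 42.2 CPM to 38.4, 35.8 and 39.3 CPM, a response difference of -0.70 ± 0.12 (adjusted p = 0.0020).

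Over all genes the genotype difference passed the test in 232 (1.65%) in control and in 735 (5.22%) at 4 h. The control number was 145 without TTP-KO control replicate 3, and the 4 h number 466 without WT 4 h replicate 2 and 484 without TTP-KO 4 h replicate 3. Of the 97 genes 78 differed at 4 h and 16 in control, with 5 in both and 8 in neither. Of the 39 genes with a higher response 25 differed at 4 h alone, 9 were lower in TTP-KO in control alone, 1 (Fn1) changed sides and 4 differed in neither. Of the 58 with a lower response 48 were lower at 4 h alone, 2 (Il1a and Maff) were higher in control alone, 4 differed in both and 4 in neither. These are the same libraries as those of the response difference.

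**Figure D4:**
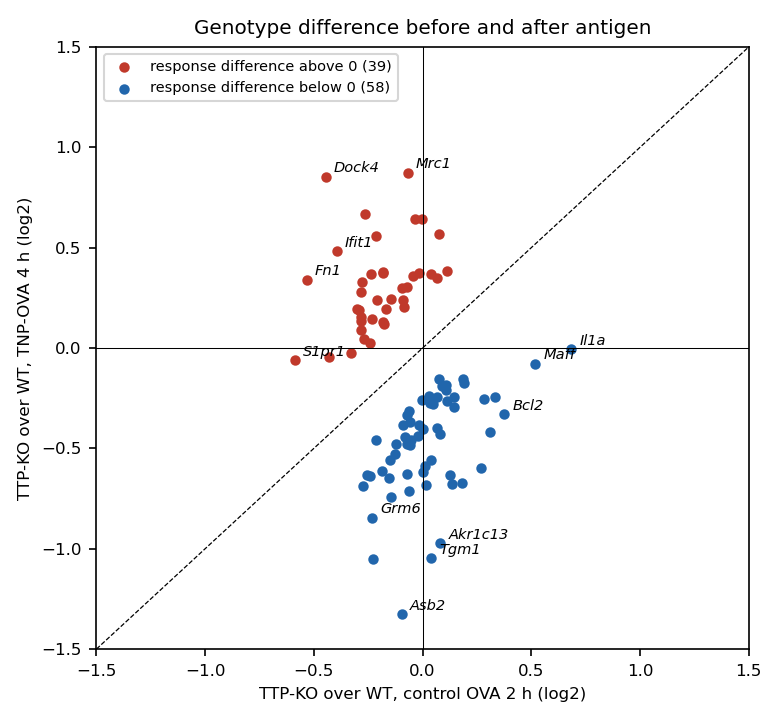
The genotype difference (log2, TTP-KO over WT) of the 97 called genes in control (x axis) and at 4 h (y axis); red and blue points are the 39 and 58 genes with a higher and a lower response, and the dashed line marks equal differences. Il1a lies at 0.68 on the x axis and -0.0046 on the y axis, while Asb2 and Akr1c13 lie near 0 on the x axis and below 0 on the y axis.

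The reported targets of TTP were examined as a list. Of 40 tested, 2 had a higher response (Il4 and Zfp36l1) and 5 a lower response (Il1a, Bcl2, Maff, Lif and Tnf), and the median was -0.09. Over all genes tested 0.277% were called higher and 0.412% lower, with a median of 0.01. The response difference counts of every list here are to be read against those shares. The shares include genes of low expression, where few calls were made. Among genes that rose in WT 0.725% were called higher and 1.81% lower, and 32 of the 40 targets rose in WT. Lif, a cytokine of the IL-6 family, stood at 33.3, 35.6 and 44.9 CPM in WT and 25.4, 25.0 and 22.8 CPM in TTP-KO at 4 h. Its means at 2 h after antigen were higher, at 66.7 CPM in WT and 61 CPM in TTP-KO. The response difference of Lif, -0.76 ± 0.18 (adjusted p = 0.041), held in 4 of 12 fits. Tnf stood at 192, 208 and 220 CPM in WT and 181, 187 and 188 CPM in TTP-KO at 4 h, each below all WT ones. In control it stood at 184, 176 and 199 CPM in WT and 211, 200 and 227 CPM in TTP-KO, each above all WT ones. Its difference was -0.34 ± 0.08 (adjusted p = 0.041, 3 of 12 fits). The calls of Lif and Tnf were lost with the 12 libraries alone and with limma-voom. Zfp36l1, a paralog of TTP that binds the same elements, differed by 0.31 ± 0.08 (adjusted p = 0.0499, 1 of 12 fits), a call lost in 4 of the 8 other fits. Other targets did not pass. Csf2 had a value of -1.62 ± 0.42 (adjusted p = 0.074) at group means of 0.69 to 7.32 CPM, Il3 -1.59 ± 0.51 (adjusted p = 0.20), Ccl3 0.30 ± 0.07 (adjusted p = 0.058) and Il6 -0.25 ± 0.09 (adjusted p = 0.29). Il1b, Ptgs2, Myc and Cxcl2 had values between 0.00 and 0.03.

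The AU-rich nonamer TTATTTATT is a sequence that TTP is known to bind, so sites are shown for 9 of the 14 members of the 97 that contain it in the annotated 3′ UTR, those described elsewhere in the text. The sites come from the longest annotated 3′ UTR of each gene in GENCODE release M21 (build GRCm38), matched by gene identifier, written 5′ to 3′ as DNA of the transcribed strand, with the nonamer in capitals and 9 bases on either side. The files use build GRCm39, so no genome coordinates are given. From genes with a lower response, besides Nek6 (7 of 12 fits), Crebbp (2 of 12 fits) and Tars1 (2 of 12 fits), the sites are:
Tnf: ttgcacttaTTATTTATTatttattta
Lif: aaggggcctTTATTTATTatttaaaac
Maff: tccacactcTTATTTATTgcacgaatc
Bcl2: aaaaaagatTTATTTATTtaagacagt
Lrp12: aattcttgtTTATTTATTccttagctg
From genes with a higher response, besides Bod1l (7 of 12 fits) and St8sia4 (2 of 12 fits), they are:
Lpl: gctttcaatTTATTTATTagctgtaaa
Rgs1: aaatgtttaTTATTTATTacttgaaga
Zfp36l1: actgttggaTTATTTATTttagaaatt
Cbl: atactaatgTTATTTATTaattttttt
Tnf holds 5 nonamers, counted with overlaps, the first at base 438 of a 3′ UTR of 764 bases, and Lif, Maff and Bcl2 hold 2 each. Lrp12, Lpl, Rgs1, Zfp36l1 and Cbl hold 1 each. Rgs1 (0.31 ± 0.06, adjusted p = 0.013, 10 of 12 fits) regulates G protein signalling and Cbl is a ubiquitin ligase of receptor signalling. Il4, with a 3′ UTR of 104 bases, holds no nonamer. It holds 2 copies of the heptamer TATTTAT, which is part of the nonamer, and 2 of the pentamer ATTTA inside that heptamer. The nonamer, searched on the transcribed strand, was in 954 of 11603 tested genes with an annotated 3′ UTR (8.22%). It was in 6 of 39 genes with a higher response (15.4%) and in 8 of 53 with a lower response (15.1%). Per 1000 bases of 3′ UTR there were 0.0679 nonamers over all genes, 0.0705 in the higher set and 0.171 in the lower set. The density of the lower set includes the 5 overlapping matches of Tnf. Among all genes that rose in WT 9.36% held the nonamer, at 0.0806 per 1000 bases. The 3′ UTRs were longer in both sets, with medians of 1532 and 1426 bases against 1162 bases. A match is a string of letters and was not tested for binding.

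**Figure D5:**
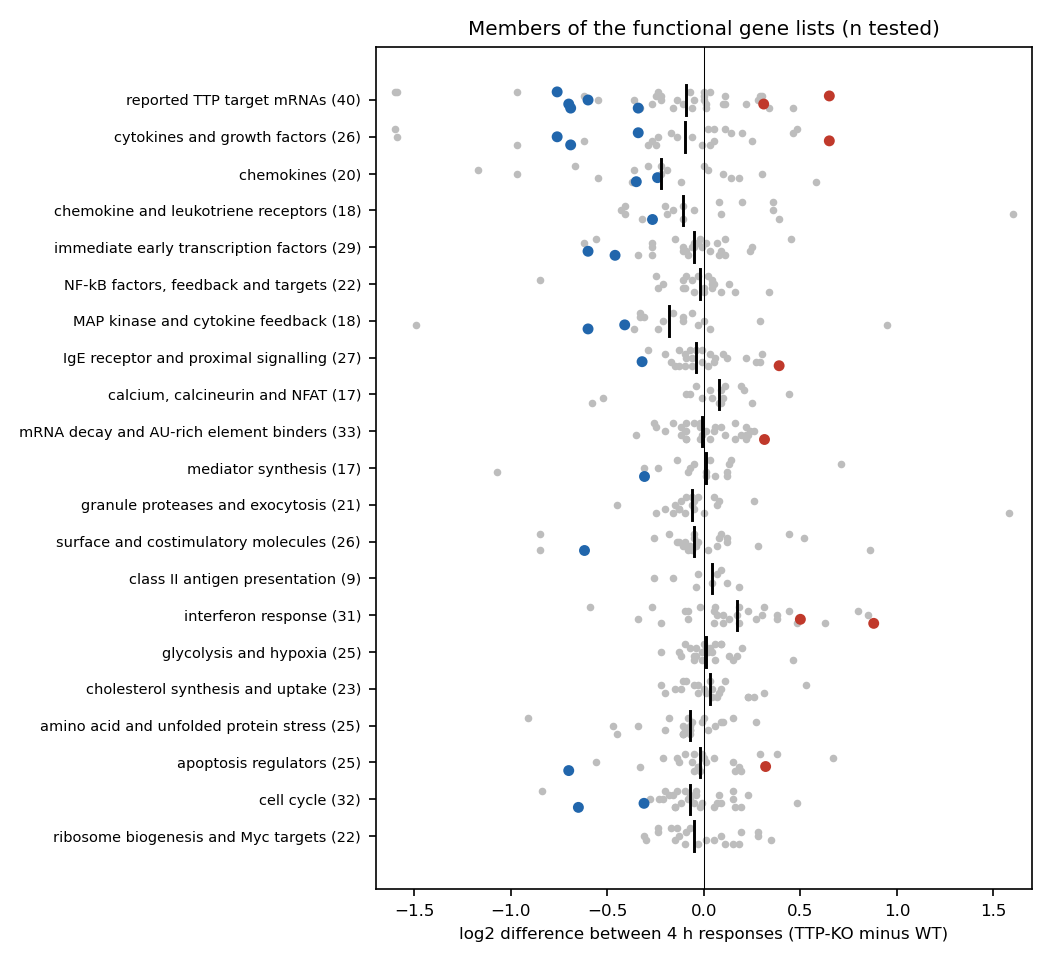
The response difference (x axis, log2, TTP-KO minus WT) of each tested member of 21 functional gene lists, with the number tested after each list's name. Red and blue points are members that passed the test, grey points those that did not, and black bars are list medians; 3 members are drawn at the axis limit of 1.6. Chemokines and feedback genes have the lowest medians, at -0.22 and -0.18, and interferon response genes the highest, at 0.17.

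The remaining lists held few calls. Of 26 cytokines and growth factors 1 was higher and 3 were lower (median -0.10), all of them TTP targets described above. Of 27 genes of the IgE receptor and its proximal signalling, Cbl had a higher response (0.39 ± 0.09, adjusted p = 0.047, 1 of 12 fits). Ms4a2, the receptor's beta chain, had a lower response (-0.32 ± 0.08, adjusted p = 0.048, 2 of 12 fits). Of 18 chemokine and leukotriene receptors, Cxcr2 was lower (-0.27 ± 0.06, adjusted p = 0.046, 2 of 12 fits). Of these calls those of Ms4a2 and Cxcr2 were lost with the 12 libraries alone and those of Cbl and Cxcr2 with limma-voom, and that of Cxcr2 without a filter. Of 26 surface and costimulatory molecules Cd69 was the only call, and of 25 apoptosis regulators Bcl2 and Bcl2l11 were the only calls, 1 in each direction. Of 33 genes of mRNA decay and AU-rich element binding, Zfp36l1 was the only call. No member was called among 22 genes of NF-kB, 17 of calcium and NFAT, 21 of granules and exocytosis, 9 of class II presentation, 25 of glycolysis, 23 of cholesterol synthesis, 25 of stress responses and 22 of ribosome biogenesis.

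The same difference taken at 2 h was called in 7 genes (0.0497%): Il13, Nr4a3, Rgs1, Ccl3, Zfp36, Tufm and Phf20l1. The number was 4 without TTP-KO control replicate 2. The comparisons at 2 h and 4 h share all 6 control libraries, so their values are set side by side and their likeness is not counted. Nr4a3 had -0.56 ± 0.08 at 2 h and -0.46 ± 0.08 at 4 h. Il13, the other type 2 cytokine, had 0.58 ± 0.08 (adjusted p = 6.80e-04) at 2 h and -0.06 ± 0.08 (adjusted p = 0.86) at 4 h. Il4 had 0.02 at 2 h and 0.65 at 4 h. The order of these 2 cytokines was thus opposite at the 2 times.

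The change between the times can be tested directly, because the controls cancel. The 4 h difference minus the 2 h difference passed the test in 44 genes (0.313%). The number was 26 without WT 4 h replicate 3 and 29 without TTP-KO 4 h replicate 3. It included Il13 at -0.65 ± 0.08 (adjusted p = 4.88e-05) and Il4 at 0.63 ± 0.10 (adjusted p = 0.012). Of the 97 genes called at 4 h, 21 were among them, which is 21.6% of the 97 and 47.7% of the 44, and the 4 h libraries enter both tests. Mrc1 had 0.12 at 2 h, and its change to 4 h was 0.82 ± 0.10 (adjusted p = 1.06e-04). Akr1c13 had -0.07 at 2 h and a change of -0.98 ± 0.13 (adjusted p = 1.07e-04), and F2r had -0.01 and a change of -0.48 ± 0.06 (adjusted p = 1.07e-04). Fn1, Dab2, Asb2, P2ry1, Coro2a, Ccl6, Ccl9, Socs1, Sdc4, Adora2b and Lrp12 also passed. In Nr4a3 (0.10 ± 0.07, adjusted p = 0.75) and Maff (-0.19 ± 0.11, adjusted p = 0.64) the change did not pass.

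Low expression limited the test. With the tested genes divided into 4 equal groups by expression, 84 of the 97 were in the highest, 12 in the next, 1 in the one below and 0 in the lowest, where the median SE was 0.66 against 0.10 in the highest. In the lowest group a 1.5-fold difference between responses was not detectable at this depth. By adjusted p the genes just inside the threshold were Mmp12 (0.39, adjusted p = 0.0488, 3 of 12 fits), Stk16 (-0.36, 0.0488, 1 of 12 fits) and Zfp36l1 (0.31, 0.0499), and those just outside were Cd274 (0.28, 0.0512), Axin1 (-0.57, 0.0526) and Fam32a (0.43, 0.0541). Tgm1 (-1.09, 5 of 12 fits), a transglutaminase, Sos1 (-0.87, 4 of 12 fits), an activator of Ras, and Amigo2 (-0.82, 2 of 12 fits), an adhesion protein, were named for their size. The calls of Tgm1 and Amigo2 were lost with limma-voom, those of Sos1 and Amigo2 with the 12 libraries alone, and that of Amigo2 also with RLE scaling and the replicate block. Those of Mmp12 and Stk16 were lost with RLE scaling, the replicate block and limma-voom, and that of Mmp12 also without a scaling factor.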

How the data were processed

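The authors deposited a table of estimated counts (expected counts of the kind RSEM gives) per gene, not normalized. Per the submitters' processing notes the tools were RSEM 1.3.1, STAR 2.7.10a, cutadapt 3.5 and R 4.4.1 and 4.4.0, and the build was GRCm39; their roles, the annotation and the strand setting are not given in the sources used here. Control columns, named as unstimulated, were matched to control OVA.

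Counts were rounded and fitted in R 4.3.3 with edgeR 4.0.16 (robust quasi-likelihood, TMM scaling, filterByExpr on 6 groups). The fit used all 18 libraries with a mean for each group, which left 12 residual degrees of freedom. The genes tested held 99.8% of counts, and the biological coefficient of variation was 0.0905. Benjamini-Hochberg adjustment ran over the 14076 genes, and calls used a threshold of 0.05. SE is the log2 value divided by the square root of F. An exact permutation test of 3 against 3 libraries cannot go below 0.1, so tests rest on this model. CPM are scaled by TMM.

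Named genes were those called in the response difference whose mean log2 CPM was 2 or more and which have a gene symbol. They were in each direction the 12 smallest p and the 8 largest differences, in each of 4 response classes the 4 smallest p, and in each of 31 lists up to 5 called members, or the smallest p where none passed; Zfp36 was always given. A gene that the rule names is not reported here. Members, lists and this rule were chosen with earlier results of these data known. Alternatives were RLE or no scaling, no filter or one at a mean log2 CPM of 2, the 12 libraries alone, a replicate block, DESeq2 1.42.0, limma-voom 3.58.1 and leaving out each of 12 libraries. The edgeR fit was also run on simulated counts, for the response difference at 4 h alone, and the outcome is not given here. The alternatives were not run on simulated counts. Counts of paired libraries within a group differed beyond sampling noise in all 12 pairs (chi-square of 3.01 to 7.28 per degree of freedom).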

Additional observations from a re-analysis of the deposited data

Results flagged for a closer look

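Genotypes differed in their 4 h response, by the test of the difference itself, in 97 genes, and the difference at 4 h departed from that at 2 h in 44. No explanation was weighed for any of them.

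Of the named genes among the 97, the response was higher in TTP-KO on the log2 scale by 0.94 in Mrc1, 0.93 in Dab2, 0.88 in Fn1, 0.88 in Ifit1, 0.77 in Rnf125 and 1.3 in Dock4. It was higher by 0.68 in Arg1, 0.65 in Il4, 0.56 in Heatr5a, 0.50 in Rsad2 and 0.44 in Dgat1. Smaller higher values were 0.42 in Sdc4, 0.40 in Cd93, 0.39 in Cbl, 0.37 in Lpl, 0.32 in Bcl2l11 and 0.31 in Zfp36l1.

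The response difference was negative in the others. It was -1.23 in Asb2, -1.09 in Tgm1, -1.05 in Akr1c13, -0.87 in Sos1, -0.85 in Coro2a, -0.82 in Amigo2 and -0.81 in Lrp12. It was -0.76 in Lif, -0.70 in Id1, -0.70 in Bcl2, -0.69 in Il1a, -0.65 in Ccnd2, -0.62 in Cd69, -0.60 in P2ry1, -0.60 in Socs3 and -0.60 in Maff. It was -0.49 in F2r, -0.46 in Nr4a3, -0.41 in Adora2b, -0.41 in Socs1, -0.35 in Ccl6, -0.34 in Tnf and -0.33 in Spp1. It was -0.32 in Ms4a2, -0.31 in Ccnd3, -0.31 in Alox5, -0.27 in Cxcr2 and -0.24 in Ccl9.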

How the results depend on the processing

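The count of 97 calls was 93 with RLE scaling, 95 without a scaling factor, 119 with a filter at a mean log2 CPM of 2 and 95 with 12 libraries. Without an expression filter it was 259 (114 higher, 145 lower), with DESeq2 188 (69 higher, 119 lower) and with limma-voom 66 (35 lower). Of the 97 genes 72 were called with 12 libraries, 95 with DESeq2 and 64 with limma-voom. The share of higher calls was 40.2%, against 32.6% without a scaling factor and 52.6% with 12 libraries. Leaving out 1 library gave 46 to 133 calls, 19 to 53 higher and 27 to 80 lower.

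Without a filter the genotype difference in control was called in 399 genes, the 2 h difference in 55 and the change from 2 h to 4 h in 134; with DESeq2 the latter 2 were 31 and 128. Leaving out 1 library gave 145 to 234 genes for the genotype difference in control, 466 to 829 at 4 h, 4 to 8 for the 2 h difference and 26 to 62 for the change. The cause of these shifts was not tested.

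Whether replicate numbers pair the libraries was not settled. Correlations of deviations between same-numbered libraries ran from -0.138 to 0.104, and 6 of 12 libraries correlated best with their own number. These values had no reference distribution, so they cannot show or exclude pairing. With the replicate block 89 genes were called (33 higher, 56 lower), 81 of them among the 97, and the block gave 5276 calls for the WT response, 4891 for the TTP-KO response, 257 and 746 for the genotype difference in control and at 4 h, 8 for the 2 h difference and 43 for the change.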
